A study of Mus musculus with 12 samples.

Results

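The 10 genes described here belong to fatty acid synthesis and were followed one by one through the 12 libraries of a study of mouse hepatocytes sorted by fat content. They were Srebf1, Acly, Acaca, Acacb, Fasn, Me1, Pgd, G6pdx, Thrsp and Acss2, and they were taken by gene symbol from a table of 52636 genes. All 10 symbols were found once each, and all 10 genes passed the filter on low values.

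The libraries came from 6 mice, 3 labelled wild type (WT) and 3 labelled PTPRK knockout (KO). Ptprk encodes a receptor-type protein tyrosine phosphatase. From each mouse, hepatocytes of steatotic liver were divided by Percoll gradient and differential centrifugation into fractions of low and high fat content, and polyA RNA was sequenced from both. This gave 4 groups of 3 libraries, low-fat and high-fat from each genotype, and the fractions of one mouse share a mouse name in the labels. All 4 groups were therefore hepatocytes of fatty livers. The labels used here give no diet, age, sex or strain, and do not say which part of Ptprk was removed or in which cells.

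Fatty acid synthesis in the liver turns citrate carbon into palmitate. ATP-citrate lyase (Acly) and acetyl-CoA synthetase (Acss2) make acetyl-CoA, acetyl-CoA carboxylases (Acaca, Acacb) make malonyl-CoA, and fatty acid synthase (Fasn) assembles the chain with reducing power from NADPH. Malic enzyme (Me1) and the pentose phosphate dehydrogenases (G6pdx, Pgd) supply NADPH. The transcription factor SREBP-1, encoded by Srebf1, activates most of these genes in response to insulin, and Thrsp (Spot 14) is a small nuclear protein that is itself a marker of lipogenic activity.

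Levels are the deposited values, reads scaled to 20 M per library (M, mega). Estimated depth lay between 15.08 and 25.02 M reads, so that 3 reads corresponded to 2.40 to 3.98 on this scale, a limit that covers counting error only. The targeted gene was examined first. Ptprk stood at 2758, 2883 and 2724 in the WT and at 1117, 1364 and 1333 in the KO mice for low-fat libraries, and at 2174, 2578 and 2469 in WT high-fat and 1217, 1204 and 1179 in KO high-fat libraries. Every KO library was below every WT library, and a reduced transcript level remained in each. The log2 difference, KO minus WT, was -1.14 (limma adjusted p = 0.0023) in low-fat and -0.96 (limma adjusted p = 0.013) in high-fat libraries.

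Promoter windows of 4 of the 10 genes are shown for reference. Each is the 250 bases before an annotated start site in RefSeq (build GRCm38.p6, not the build of the deposited table), written 5′ to 3′ on the gene's own strand. Capitals mark the CCAAT box (CCAAT, or ATTGG for the other strand) and the GC box (GGGCGG, or CCGCCC for the other strand). All 4 genes lie on the minus strand. The windows are chr11:60210472-60210721 for Srebf1 (the nearest to the gene's 3′ end of 3 entries), chr11:120824548-120824797 for Fasn, chr11:100528001-100528250 for Acly and chr7:97417551-97417800 for Thrsp.
Srebf1: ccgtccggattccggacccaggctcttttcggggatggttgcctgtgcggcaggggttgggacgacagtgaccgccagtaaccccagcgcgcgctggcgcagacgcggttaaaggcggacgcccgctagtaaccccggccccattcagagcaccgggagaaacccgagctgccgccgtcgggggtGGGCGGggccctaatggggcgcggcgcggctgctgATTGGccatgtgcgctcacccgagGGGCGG
Fasn: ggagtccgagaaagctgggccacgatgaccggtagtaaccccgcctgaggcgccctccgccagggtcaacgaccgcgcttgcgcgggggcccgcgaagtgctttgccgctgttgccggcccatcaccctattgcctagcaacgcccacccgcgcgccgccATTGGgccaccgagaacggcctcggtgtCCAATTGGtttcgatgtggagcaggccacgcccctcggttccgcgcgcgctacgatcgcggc
Acly: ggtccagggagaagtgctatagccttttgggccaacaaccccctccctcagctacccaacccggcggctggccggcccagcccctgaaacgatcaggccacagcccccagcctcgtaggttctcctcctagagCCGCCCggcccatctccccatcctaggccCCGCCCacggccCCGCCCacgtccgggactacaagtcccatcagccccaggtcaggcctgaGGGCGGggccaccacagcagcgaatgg
Thrsp: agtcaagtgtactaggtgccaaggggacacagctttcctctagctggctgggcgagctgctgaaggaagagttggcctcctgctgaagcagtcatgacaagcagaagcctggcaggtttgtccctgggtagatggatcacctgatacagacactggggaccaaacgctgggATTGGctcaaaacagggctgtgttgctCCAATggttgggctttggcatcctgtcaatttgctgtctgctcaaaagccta
In the Fasn window 3 CCAAT boxes were found, of which 2 overlap, and in the Thrsp window 2. The Acly window held 4 GC boxes and no CCAAT box, and the Srebf1 window held 1 CCAAT box and 2 GC boxes. The Acaca window, which is not shown, held 0 CCAAT boxes and 0 GC boxes. Over the 14 RefSeq entries of the 10 genes, 8 entries from 7 genes held a CCAAT box and 7 entries from 6 genes a GC box. Among all 32851 promoter windows of this length the shares were 33.8% and 32.7%. The E-box CACGTG, found in 6.02% of all windows, and the sterol element written as TCACNCCAC, found in 1.05%, matched in 0 of the 14 entries on either strand. At such low shares, 0 of 14 entries does not show that either element is lacking, and other spellings were not searched. These are letter matches in a window of fixed length, not measured binding sites.

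The 10 transcripts covered a wide range of abundance. Exon length (GENCODE M21) joined the exons of all annotated isoforms, 10163 bases for Acss2, 6447 for Pgd and 3848 for Me1. The order of the genes depends in part on this length. Divided by it, the mean over 12 libraries was 4274 reads per 20 M per kb for Srebf1, 2823 for Fasn, 2208 for Acly, 1485 for Thrsp and 1206 for Me1. The other 5 genes were lower, at 361 for Acaca, 287 for Acss2, 210 for Acacb, 171 for Pgd and 72.2 for G6pdx. Acaca, the cytosolic carboxylase that feeds fatty acid synthesis, was thus above Acacb, the form at the mitochondrial surface whose malonyl-CoA restrains fatty acid oxidation. Annotated genes on the opposite strand overlap Srebf1, Acaca, Acacb, Me1, Acss2 and G6pdx, and the strand setting of the authors' counting is not given in the sources used here, so that reads of opposite-strand neighbours cannot be told apart from theirs. G6pd2, an autosomal copy related to G6pdx, was at 0 in all 12 libraries.

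The first comparison asked how the genes differed between high-fat and low-fat hepatocytes of the same mouse. Acly, Acaca, Srebf1 and Thrsp were lower in the high-fat fraction in 6 of 6 mice. Of the 10 genes, 9 had a mean difference below 0, where 60.4% of all genes tested did. The direction alone was not particular to them, since 15 of 16 hepatocyte markers were below 0 too. The median log2 difference was -0.34 for the 10 genes and -0.16 for those markers. Acly differed most, with a high-fat level at 58.6% of the low-fat level on average, followed by Fasn at 69.9% and Acaca at 70.5%. G6pdx, which encodes the first dehydrogenase of the pentose phosphate pathway, did not share the direction, at 104%. These values, and the log2 differences below, are after rescaling of the libraries with TMM, a trimmed-mean method.

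Acly, which splits cytosolic citrate into acetyl-CoA and oxaloacetate, was measured at 24799, 12573 and 10742 reads per 20 M in low-fat libraries of WT mice 1 to 3, and at 13224, 9726 and 6689 in their high-fat libraries. In KO mice 1 to 3 it was 18299, 7919 and 12845 in low-fat and 8913, 5367 and 8786 in high-fat libraries. Each mouse's high-fat value was below its low-fat value. The groups overlapped, and by deposited values mouse 1 stood above the other mice of its genotype in both fractions. In KO high-fat libraries its lead over mouse 3 was narrow, 8913 against 8786, and did not hold after rescaling. The mean within-mouse log2 difference was -0.77 ± 0.35 (SD, n = 6 mice, range -1.27 to -0.40; two-sided exact sign-flip permutation p = 0.031, the smallest that 6 mice allow). Of all 16563 genes tested, 0.362% had a lower mean difference.

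Acss2, which makes acetyl-CoA from acetate, was 3967, 2847 and 2631 in WT low-fat and 3583, 2596 and 2556 in WT high-fat libraries, and 2836, 2040 and 4101 in KO low-fat and 2194, 2039 and 3630 in KO high-fat libraries. The 12 values spanned a narrow range compared with Acly, and KO mouse 2 had nearly the same level in both fractions. The within-mouse difference was -0.23 ± 0.21 (SD, n = 6), lower in 5 mice.

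Acaca was 10482, 6585 and 6588 in WT low-fat and 6325, 6199 and 4911 in WT high-fat libraries. It was 7523, 3995 and 7427 in KO low-fat and 4968, 3353 and 5562 in KO high-fat libraries. In WT no high-fat library reached the lowest low-fat library, and Acaca was the only one of the 10 genes for which this held in either genotype. Among all genes tested, 3.51% were lower without overlap in WT and 2.64% in KO. The within-mouse difference was -0.50 ± 0.32 (SD, n = 6), and it ranged from -0.11 in WT mouse 2 to -0.91 in WT mouse 1.

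Acacb had no uniform direction over the mice. Its values were 3422, 1777 and 1023 in WT low-fat and 2595, 2191 and 982 in WT high-fat libraries, and 2604, 515 and 3696 in KO low-fat and 1734, 556 and 3171 in KO high-fat libraries. Mouse 2 of both genotypes had more Acacb in the high-fat fraction, and the difference of -0.23 ± 0.41 (SD, n = 6) was smaller than its spread.

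Fasn, the most abundant of the 10 by mean reads, was 66482, 42775 and 17423 in WT low-fat and 37248, 43964 and 12577 in WT high-fat libraries. In KO it was 30383, 14858 and 41777 in low-fat and 18161, 13073 and 32084 in high-fat libraries. The value was lower in the high-fat fraction of 5 mice and nearly equal in WT mouse 2, and the libraries of a group differed by up to several fold. The within-mouse difference was -0.52 ± 0.42 (SD, n = 6; two-sided exact sign-flip permutation p = 0.062).

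Srebf1 was 32501, 33633 and 16236 in WT low-fat and 25023, 28774 and 14015 in WT high-fat libraries, and 22332, 23509 and 29791 in KO low-fat and 19099, 18137 and 25932 in KO high-fat libraries. Both WT mouse 3 libraries stood below the other 10. The within-mouse difference was smaller than that of Acly but more even over the mice, at -0.36 ± 0.14 (SD, n = 6, range -0.56 to -0.18; two-sided exact sign-flip permutation p = 0.031). Thrsp had a similarly even difference of -0.30 ± 0.14 (SD, n = 6) despite levels that differed strongly between mice. It was 6575, 4493 and 1283 in WT low-fat, 6591, 3848 and 1145 in WT high-fat, 2388, 2357 and 3499 in KO low-fat and 1999, 1714 and 3110 in KO high-fat libraries. In WT mouse 1 the deposited Thrsp values of both fractions were nearly equal, and the high-fat value was lower only after rescaling.

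**Figure D1:**
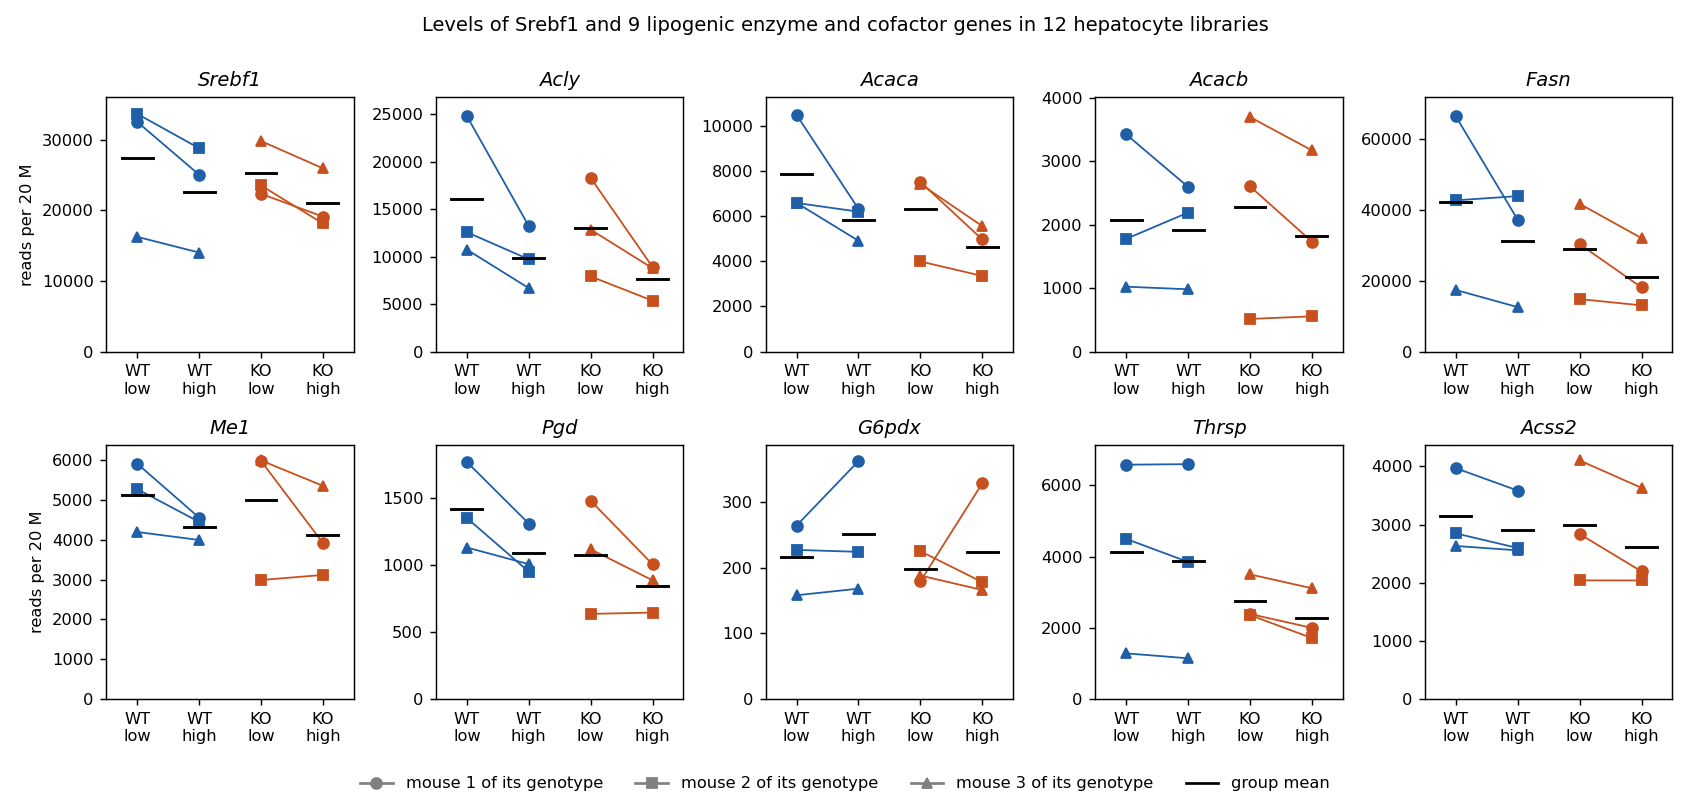
Levels of the 10 genes in reads per 20 M (y axes, each starting at 0) in the 4 groups (x axes), with 1 point per library, the fractions of a mouse joined by a line and a bar at the group mean. Most lines slope downward from low-fat to high-fat, and for Thrsp, Acacb and Fasn the distance between mice exceeds the slope of the lines.

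Among the sources of NADPH, Pgd and Me1 followed the main direction and G6pdx did not. Pgd, 6-phosphogluconate dehydrogenase, was 1764, 1347 and 1128 in WT low-fat and 1306, 948 and 1004 in WT high-fat libraries, and 1476, 634 and 1115 in KO low-fat and 1003, 644 and 884 in KO high-fat libraries. It was lower in the high-fat fraction of 5 mice, with a mean difference of -0.42 ± 0.29 (SD, n = 6). Me1 lay between 2988 and 5988 in the 12 libraries and differed by -0.32 ± 0.33 (SD, n = 6), lower in 5 mice. For both genes the exception was KO mouse 2, which had the lowest low-fat level. G6pdx was rare, at 264, 227 and 158 in WT low-fat, 362, 224 and 168 in WT high-fat, 179, 225 and 188 in KO low-fat and 328, 178 and 166 in KO high-fat libraries. It was higher in the high-fat fraction of mouse 1 of either genotype and, after rescaling, lower in the other 4 mice, with a mean difference of 0.06 ± 0.34 (SD, n = 6).

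The test of these differences depended on whether the mouse was part of the fit. Without it, limma called 0 of the 10 genes over 6 mice at an adjusted p under 0.05, where 5.8% of all 16563 genes tested were called, and 2 of the 10, Acly and Acaca, had an unadjusted p under 0.05, against 19.9% of all genes. The smallest adjusted p in that limma fit was 0.13, for Acly. Without KO low-fat replicate 2, the same limma fit called Acaca (adjusted p = 0.037), Pgd (0.038) and Acly (0.049). It called 1149 of all genes there, 212 of them lower. With a term for each mouse, 5 of the 10 were called, all of them lower, where 10.8% of all genes were called and 4.12% were called lower. These were Acly (limma adjusted p = 0.0068), Thrsp (0.017), Acaca (0.025), Srebf1 (0.032) and Pgd (0.034). Fasn (0.064), Acss2 (0.099), Me1 (0.10), Acacb (0.29) and G6pdx (0.78) did not pass the threshold in the same limma fit. When the mice entered as a correlation of 0.349 between libraries of the same mouse, limma called Acly only (adjusted p = 0.026), where 12.3% of all genes were called. Being lower in 6 of 6 mice, as 4 of the 10 genes were, held for 12.3% of all genes tested.

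Only Acly passed with the mouse term in each of 6 fits that left out a mouse (limma adjusted p from 0.0025 to 0.036). Acaca and Thrsp passed in 3 of those 6 fits, Pgd and Srebf1 in 2, and Fasn, Me1 and Acss2 in 1. The number of the 10 genes called was 8 without KO mouse 2, 5 without KO mouse 1, 2 each without WT mouse 2 or KO mouse 3 and 1 each without WT mouse 1 or WT mouse 3. The calls among all 16563 genes moved too. They were 2958, 1560, 742, 940, 598 and 1115 in these fits, in the same order. Scaling on the summed hepatocyte markers instead of TMM moved the median difference of all genes from -0.05 to 0.08 and left Acly, Fasn and Acaca past the threshold with the mouse term. There the differences were -0.63, -0.38 and -0.37, with limma adjusted p = 0.00011, 0.0083 and 0.0088. That fit called 1497 of all genes, 126 of them lower. Srebf1 (0.062), Pgd (0.16) and Thrsp (0.45) then missed the threshold in limma.

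**Figure D2:**
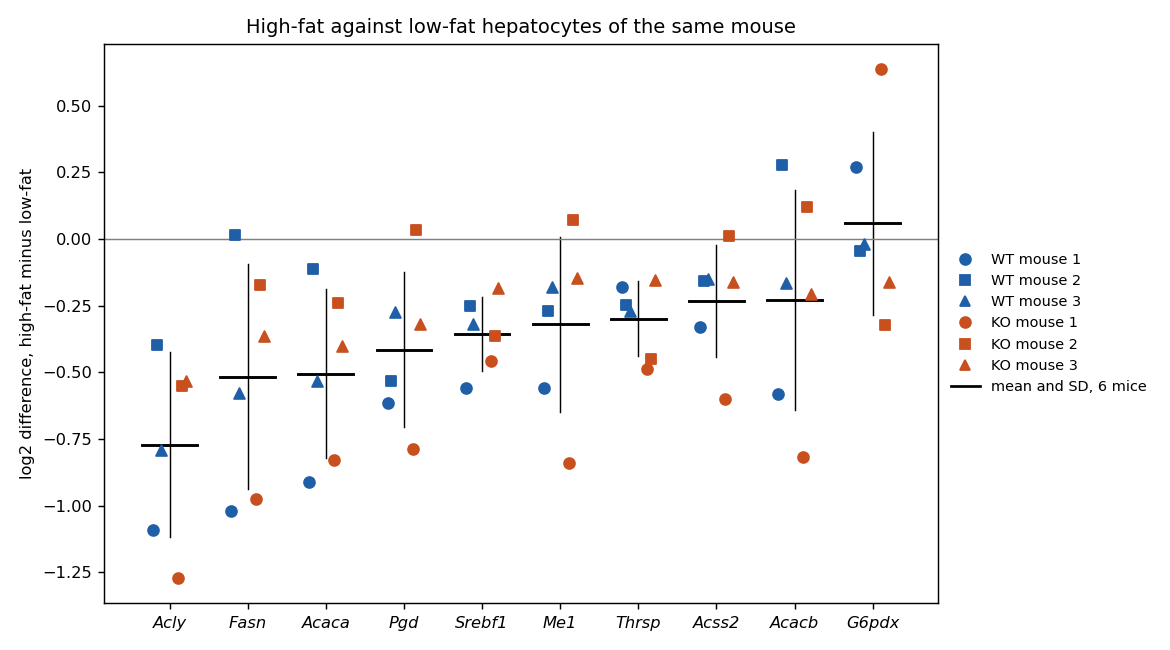
Within-mouse log2 difference, high-fat minus low-fat (y axis), for each of the 10 genes (x axis, ordered by mean), with 1 symbol per mouse and black bars for the mean and SD over 6 mice. For Acly, Acaca, Srebf1 and Thrsp all 6 symbols are below 0, and mouse 1 of each genotype holds the lowest symbols for most genes.

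Mouse 1 of both genotypes had the 2 lowest differences for 8 of the 10 genes, Thrsp and G6pdx excepted, which is visible in the plot of differences by mouse. The same mice had the largest rise of Kupffer cell and macrophage markers between fractions. The summed level of 11 such markers rose 11.1-fold in WT mouse 1 and 21.1-fold in KO mouse 1, and between 1.79-fold and 3.55-fold in the other 4 mice. Summed markers of sinusoidal endothelial cells also rose most in mouse 1 of each genotype. Those of stellate cells did so in KO only. In WT they rose by a larger factor in mouse 2, from 351 to 2634, than in mouse 1, from 818 to 5099. A fit without mouse 1 of each genotype was chosen after the values were seen. Over the remaining 4 mice, limma with the mouse term called 1244 of all genes, 361 of them lower, and 4 of the 10 genes. These were Acly at -0.57 (adjusted p = 0.00055), Acaca at -0.32 (0.021), Srebf1 at -0.28 (0.015) and Thrsp at -0.28 (0.025), in the same limma fit. Fasn was -0.27 (limma adjusted p = 0.093) and Acacb 0.01, and G6pdx turned to -0.14.

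Summed markers of Kupffer, stellate and sinusoidal endothelial cells were higher in high-fat libraries in all 6 mice, while the biliary sum was higher in 0 of 6. With the mouse term, limma called 10 of 11 Kupffer cell and macrophage markers, 10 of 10 stellate cell markers and 10 of 10 sinusoidal endothelial markers higher. Their summed levels lay between 514 and 1447 in low-fat and between 2290 and 12539 in high-fat libraries for Kupffer cells. For stellate cells these ranges were 195 to 885 and 2634 to 5099, and for endothelium 1383 to 3724 and 6019 to 18181, with no overlap between fractions. Hepatocyte markers summed to between 995189 and 1239426 in every library, and 0 of 16 were called with or without the mouse term. Their differences between fractions were nonetheless below 0 for 15 of 16, with a median of -0.16. The defining adipocyte markers Adipoq, Lep and Plin1 were at 0 to 3 reads per 20 M and Lep was at 0 in all 12 libraries.

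Markers of position within the liver lobule moved as well. With the mouse term, limma called 6 of 8 pericentral markers higher in the high-fat fraction, among them Cyp1a2 by 0.79 and Cyp2e1 by 0.70, and 6 of 8 periportal markers lower, among them Hal by -0.74 and Aldh1b1 by -1.18. In each of the 6 mice the pericentral sum was higher and the periportal sum lower in high-fat cells. Periportal hepatocytes lie where blood enters the lobule and are rich in gluconeogenic enzymes, while pericentral hepatocytes surround the central vein. The part of other cell types or of zonation in the differences of the 10 genes was not tested. In bulk libraries, fewer cells of a kind and less RNA per cell cannot be told apart.

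Within a single genotype the design had 3 mice. In WT limma called 0 of the 10 genes with or without the mouse term, where 0% and 1.09% of all genes were called, and Acly had the smallest adjusted p with the mouse term (0.079). None of the 10 had an unadjusted p under 0.05 without the mouse term in WT, against 12.8% of all genes, and 6 did with it, against 21.5%. In KO limma called 0 of the 10 with or without the mouse term, where 1.03% and 2.31% of all genes were called, and Acly again had the smallest adjusted p (0.058). None of the 10 had an unadjusted p under 0.05 without the mouse term in KO, against 8.79% of all genes, and 6 did with it, against 13.8%. With the mouse term and the deposited scaling in place of TMM, limma called Acly in WT (adjusted p = 0.048) and in KO (0.029). All genes called there numbered 173 in WT and 352 in KO. The Acly difference was -0.76 ± 0.35 (SD, n = 3) over WT mice and -0.78 ± 0.42 (SD, n = 3) over KO mice. For Srebf1 it was -0.38 ± 0.16 and -0.33 ± 0.14.

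Whether the fat-related difference itself depended on genotype was tested as an interaction. The interaction values of the 10 genes lay between -0.14 (Acacb) and 0.12 (Pgd) on the log2 scale, and 5 of 10 were below 0, where 39.1% of all genes were. Limma called 0 of the 10 and 0 of all genes (0%), with an adjusted p of 0.9999 for each of the 10, and 0 of the 10 and 0.139% of all genes had an unadjusted p under 0.05. With the mouse term limma called 0 genes as well.

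The comparison of KO with WT asked whether loss of Ptprk went with a change in lipogenic transcripts. No gene of the 10 was called by limma in either fraction, where 0.00604% of all genes, Ptprk alone, were called in each. None of the 10 had an unadjusted p under 0.05, against 1.62% of all genes in low-fat and 1.93% in high-fat libraries. The log2 differences of all 10 genes were below 0 in both fractions, while 53.3% of all genes were below 0 in low-fat and 45.8% in high-fat libraries. For Acacb in low-fat libraries the direction depends on the kind of mean, since the arithmetic mean was 2074 in WT and 2272 in KO. Most of the 10 genes vary together over the mice, so that these are not 10 separate observations, and both fractions come from the same mice.

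The largest estimates belonged to Fasn and Pgd in low-fat libraries and to Thrsp and Fasn in high-fat libraries. Fasn averaged 42227 ± 24534 (SD, n = 3, as for the values that follow) in the WT and 29006 ± 13512 in the KO mice for the low-fat fraction. For the high-fat fraction it averaged 31263 ± 16527 in the WT and 21106 ± 9842 in the KO mice. Its log2 differences of -0.46 and -0.44 had a standard error (SE) of 0.59 each. Thrsp differed by -0.31 and -0.44 (SE 0.62), and its 3 WT mice enclosed the 3 KO mice from both sides. Pgd differed by -0.45 (SE 0.29) in low-fat and -0.34 (SE 0.29) in high-fat libraries.

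Of the remaining 7 genes, Acaca differed by -0.34 and -0.31 (SE 0.29), Acly by -0.28 and -0.31 (SE 0.38) and Acacb by -0.11 and -0.25 (SE 0.78). Srebf1 differed by -0.06 and -0.02 (SE 0.30), Me1 by -0.10 and -0.06 (SE 0.28), Acss2 by -0.11 and -0.15 (SE 0.30) and G6pdx by -0.11 and -0.13 (SE 0.27). KO and WT libraries overlapped for each of the 10 genes in each fraction, while 4.97% of all genes did not overlap in low-fat and 4.51% in high-fat libraries. The exact permutation p of single genes lay between 0.3 and 1, and 3 against 3 libraries cannot go below 0.1. Leaving out 1 library or mouse in the fit without the block turned the sign for 7 of the 10 genes in low-fat libraries, Acaca, Fasn and Pgd excepted. A further fit had a term for each replicate number, shared by a WT and a KO mouse that are different animals. In it limma called 0 of the 10 in either fraction, where 0.00604% of all genes were called in low-fat and 0.0121% in high-fat libraries. In that fit 1 of the 10, Pgd, had an unadjusted p under 0.05 in low-fat libraries, against 2.99% of all genes, and 0 did in high-fat libraries, against 3.79%.

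**Figure D3:**
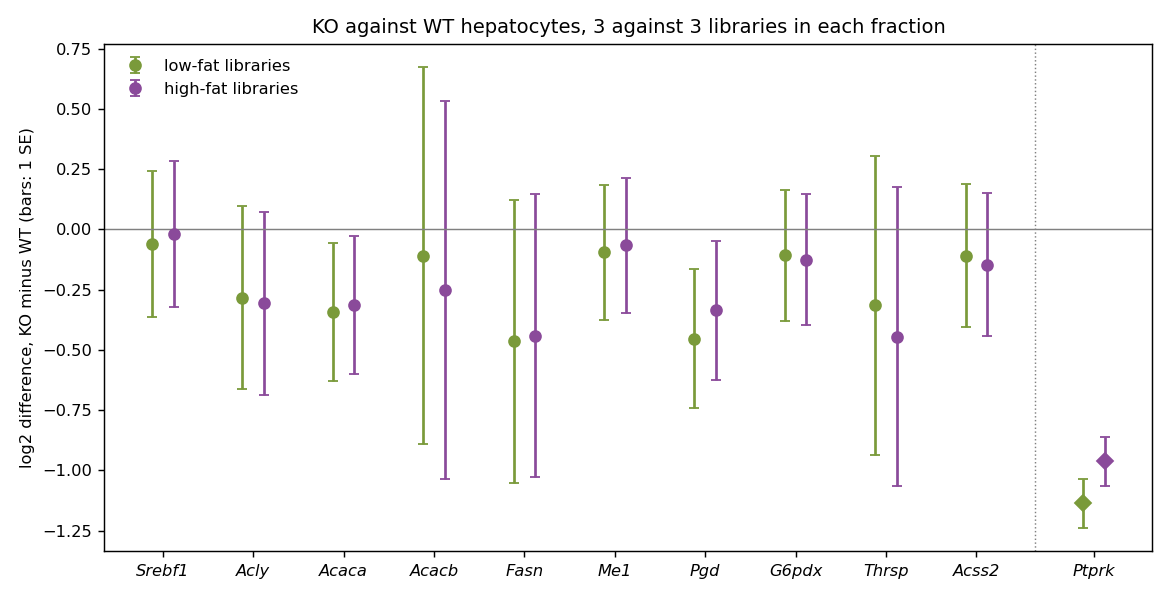
Log2 difference, KO minus WT (y axis), of the 10 genes and of Ptprk (x axis) in low-fat (green) and high-fat (purple) libraries, with bars of 1 SE from the fit of 12 libraries. The 10 genes lie between -0.46 and -0.02 with errors that mostly reach 0, and Ptprk stands apart at -1.14 and -0.96.

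The spread between mice was the largest component of variance for each of the 10 genes. The SD of the mouse levels, with group means removed, had a median of 0.413 on the log2 scale over the 10 genes, against 0.187 over all 16563 genes and 0.138 over the 10504 genes whose mean reached 100 reads per 20 M. Differences between mice of one genotype made up a median of 72.7% of the variance of the 10 genes, against 45.2% over all genes. Acacb had the widest spread (SD 1.13, 93.7% of its variance), followed by Thrsp (0.91, 89.8%) and Fasn (0.82, 74.4%). For Acly and Acaca the share between mice was 47.5% and 45.0%, and the share between fractions 40.0% and 31.3%. Genotype accounted for 0.26% of the variance of Srebf1 and at most 19.8% of any of the 10, for Pgd.

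The mice ranked differently for different genes. The highest mouse exceeded the lowest 6.67-fold for Acacb, 5.12-fold for Thrsp, 3.52-fold for Fasn and 2.74-fold for Acly, and between 1.78-fold and 2.34-fold for the other 6. KO mouse 2 was lowest for 7 genes (Acly, Acaca, Acacb, Fasn, Me1, Pgd and Acss2), and WT mouse 3 for Srebf1, Thrsp and G6pdx. WT mouse 1 was highest for 6 genes, KO mouse 3 for Acacb, Me1 and Acss2, and WT mouse 2 for Srebf1. In KO mouse 2 the Acacb libraries, 515 and 556, were the lowest of the 12, while those of Srebf1 (23509 and 18137), Thrsp and G6pdx lay within the range of the other mice.

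**Figure D4:**
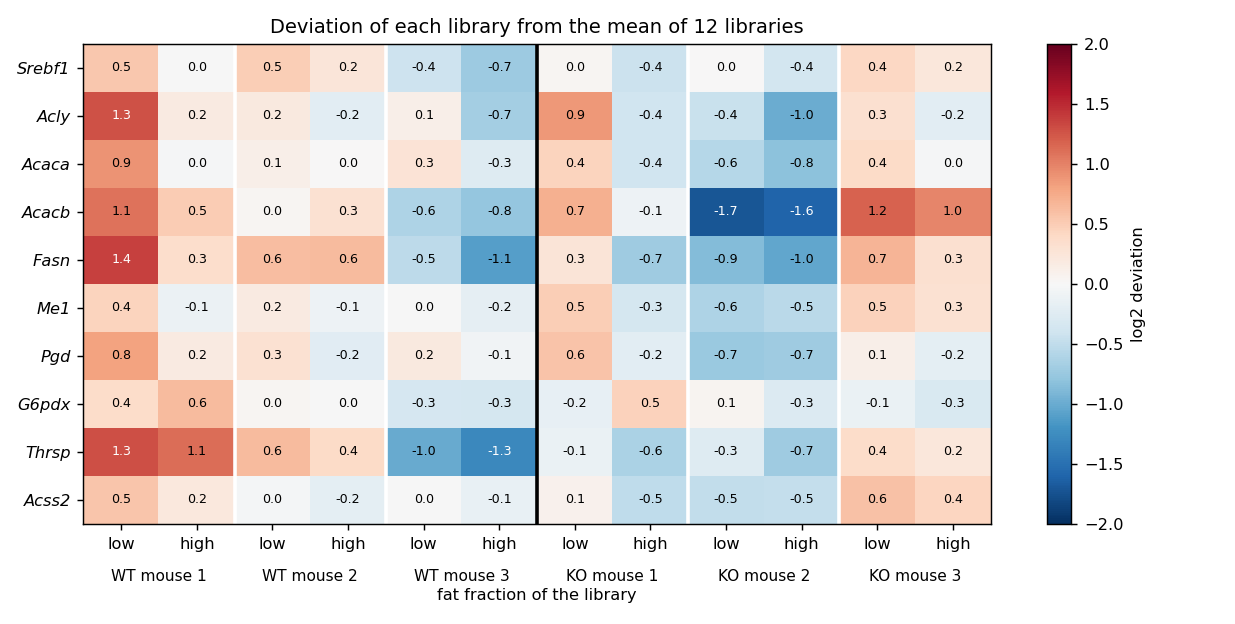
Log2 deviation of each library from the mean of 12 libraries (colour and printed value) for the 10 genes (rows), in the low-fat and high-fat library of each mouse (columns). KO mouse 2 is lowest for 7 of 10 rows and WT mouse 3 for Srebf1, Thrsp and G6pdx, and both columns of a mouse mostly share a colour.

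Clock and feeding genes also differed between mice. Dbp, a clock output gene whose transcript swings widely over the day, was 77, 351 and 611 in WT low-fat and 256, 2011 and 1630 in KO low-fat libraries. High-fat libraries ranged from 77 to 1715 with the mice in the same order. Igfbp1, which insulin represses, ranged from 1928 to 12866. WT mouse 1, highest for 6 of the 10 lipogenic genes, had the lowest Dbp and the highest Igfbp1, and KO mouse 2, lowest for 7, had the highest Dbp. KO mouse 3 went the other way. Its Dbp, at 1630 and 1498, was exceeded only by KO mouse 2, and it was highest for Acacb, Me1 and Acss2. In KO against WT, 12 clock genes had a median log2 difference of 0.26 in low-fat and 0.21 in high-fat libraries. For 10 fasting and feeding genes it was 0.19 and 0.21, and for all genes -0.01 and 0.02. Limma called 0 genes of either list there. The labels used here give no time of sampling or feeding state. The part of either in the spread between mice, or in the KO against WT differences of the lipogenic genes, was not tested.

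Correlations over the 12 libraries describe which genes shared a pattern. They carry no p, because the libraries come from 6 mice and share cells and handling. Srebf1 went with Fasn (r = 0.89) and Thrsp (0.87) more closely than with Acly (0.64), Acacb (0.63), Me1 (0.61), Acss2 (0.61), Acaca (0.59) or Pgd (0.42). Acly, Acaca and Pgd formed the closest group, with r = 0.94 between Acly and Acaca, 0.92 between Acaca and Pgd and 0.91 between Acly and Pgd. Acacb was closest to Me1 (0.88), Fasn (0.85) and Acss2 (0.84). The correlations of G6pdx with the other 9 genes reached 0.60 at most, with Thrsp.

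Among 10503 genes with a symbol and a mean of 100 or more, Mid1ip1 was most like Srebf1 (r = 0.97). Mid1ip1 is a paralogue of Thrsp whose protein promotes the assembly of acetyl-CoA carboxylase into filaments. It was followed by H2-Q7 (0.97), Gm14493 (0.96), B3gnt2 (0.95) and Gm29629 (0.93), and Fasn came at rank 8. H2-Q7 belongs to a family of near-identical class I genes and its reads may be shared with its copies. Most like Fasn were Tjp3 (0.95), Acot11 (0.94), B3gnt2 (0.93), Elovl6 (0.93) and A330041J22Rik (0.92), with Srebf1 at rank 10 and Thrsp at rank 14. Elovl6 elongates palmitate, the product of fatty acid synthase, and A330041J22Rik overlaps Me1 on the opposite strand.

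Other genes of the pathway were compared between fractions in the same way. In a list of 10 other lipogenic targets, 9 were lower in the high-fat fraction and the median difference was -0.32, against -0.34 for the 10 genes described above and -0.05 for all genes. With the mouse term limma called 3 of these 10, all lower, and without it 0. They were Elovl6 (-0.52, adjusted p = 0.013), Pnpla3, a lipid droplet protein (-0.74, 0.013), and liver pyruvate kinase Pklr (-0.52, 0.013), each by limma with the mouse term. Pnpla3 was rare, at 196, 161 and 33 in WT low-fat and 149, 106 and 24 in WT high-fat libraries, and 126, 34 and 132 in KO low-fat and 54, 18 and 95 in KO high-fat libraries.

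Of 14 genes that control SREBP, LXR and ChREBP, 13 were lower in the high-fat fraction, with a median of -0.16, close to that of the hepatocyte markers. Limma with the mouse term called Insig1 only (-0.34, adjusted p = 0.0098), and without it 0, where 10.8% of all genes were called with that term. Insig1, which retains SREBP in the endoplasmic reticulum and is itself an SREBP target, was 5252, 4652 and 2555 in WT low-fat and 4252, 3488 and 2339 in WT high-fat libraries, and 3605, 6790 and 7540 in KO low-fat and 3246, 5467 and 6551 in KO high-fat libraries. It was lower in 6 of 6 mice. Among 10 regulators of acetyl-CoA carboxylase, 9 were lower (median -0.15), against 60.4% of all genes and 15 of 16 hepatocyte markers, and limma with the mouse term called Mid1ip1 (-0.49, adjusted p = 0.0071) and the AMPK subunit Prkab1 (-0.37, 0.015).

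The medians for genes of carbon and NADPH supply were close to the -0.16 of the hepatocyte markers, and the counts of calls were no higher than the 10.8% of all genes. Of 11 tested genes of citrate and acetyl-CoA supply, 8 were lower (median -0.14), and limma with the mouse term called only Pdhb, a subunit of pyruvate dehydrogenase (-0.22, adjusted p = 0.040). The citrate carrier Slc25a1 differed by -0.28 (limma adjusted p with the mouse term 0.057). Of 9 tested genes of the pentose phosphate pathway and other NADPH enzymes, 8 were lower (median -0.17) and 0 were called by limma with or without the mouse term. Transketolase (Tkt) differed by -0.21, and the mitochondrial malic enzyme Me2 by 1.07 from low levels of 10 to 25 in low-fat libraries.

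Sterol synthesis genes, controlled mainly by SREBP-2, were called lower in part. Of 10, 9 were lower (median -0.21), and genes called lower by limma with the mouse term included Cyp51 (-0.43, adjusted p = 0.029). Among 10 fasting and feeding genes, limma with the mouse term called Ppargc1a (-0.42, adjusted p = 0.0084) and glucose-6-phosphatase G6pc (-0.37, 0.040) lower and Pdk4, a brake on pyruvate dehydrogenase (0.70, 0.036), higher. Of 12 clock genes limma with the mouse term called Cry1 (-0.37, adjusted p = 0.048). In KO against WT, limma called 0 genes of these 8 lists in either fraction, with or without the block.

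**Figure D5:**
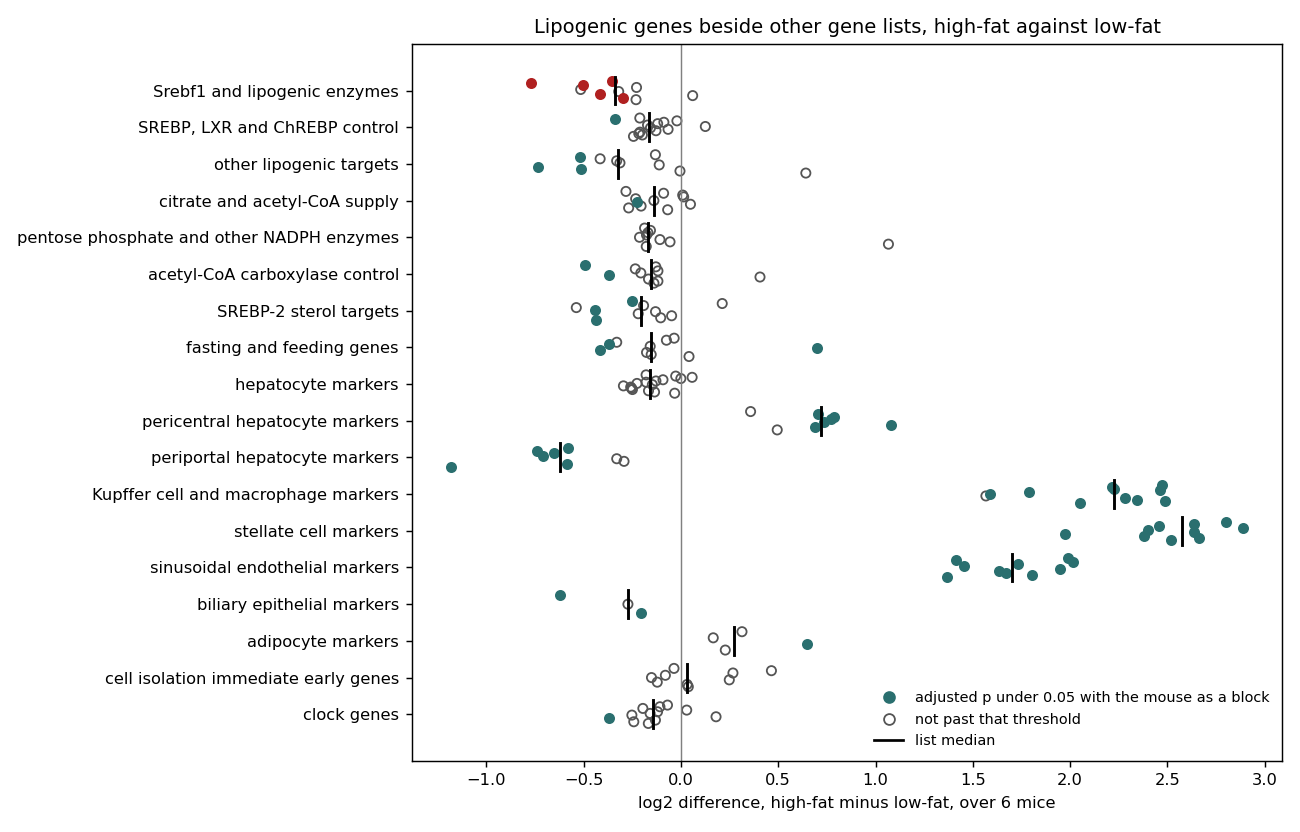
Log2 difference, high-fat minus low-fat, over 6 mice (x axis) for the tested genes of each list (rows), with filled points for genes past an adjusted p of 0.05 with the mouse as a block (red for the 10 genes of the first row), open points for the others and a bar at the list median. The first row, with its median at -0.34, lies left of 0 apart from G6pdx, and markers of Kupffer, stellate and endothelial cells lie between 1.37 and 2.89.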

How the data were processed

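RNA of 12 hepatocyte libraries was measured by sequencing. The deposited values are a score: the authors scaled gene read counts to 20 M per library and rounded up, as read from the values, since each column sums to 20.01 M. The submitters' processing notes name the build mm9, while aligner, counter, annotation and strand setting are not given in the sources used here. Depth was estimated from the frequencies of low values, from gaps among them in the libraries with fewer than 20 M reads, and in KO high-fat replicate 1 from the sum that rounding adds. On 24 simulated libraries the largest error was 0.011%, but the estimate can fail for factors close to 1.

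Genes reaching 10 in at least 3 libraries were tested, 16563 of 52636. Values were rescaled by TMM, implemented in R, and transformed as log2(value + 2), a scale that understates the change of low genes. Limma 3.58.1 (R 4.3.3) fitted 4 group means over all 12 libraries, with a trend of the variance on the level. Two-sided p-values were Benjamini-Hochberg adjusted over all genes tested, with a threshold of 0.05. This fit treats the fractions of a mouse as separate. Between fractions and in the interaction, the replicate block has a term for each mouse. In KO against WT it has a term for each replicate number, which joins different animals. Other settings were pseudocounts of 0.5 and 10, no filter, 3 other scalings, a block, a same-mouse correlation, only the libraries compared, and leaving out each library or mouse. Fits joining the block with another scaling or with mice left out were chosen after seeing the data. On simulated data all genes called among those changed had the right direction, part of the changed genes were missed, and false calls exceeded the nominal share in KO against WT with or without the block, and between fractions in WT with the block.

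Replicates are different mice, so p-values cover the spread between mice. The labels give both fractions of a mouse the same mouse name, which pairs them. As a check, deviations from group means correlated between fractions of the same mouse (mean r 0.516 for WT, 0.163 for KO) more than between different mice (-0.258 and -0.075). In KO this rests on mouse 3 (0.459), while mice 1 and 2 had 0.042 and -0.011. Same-numbered WT and KO mice are different animals and share only a number.

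The 10 genes and all lists were chosen with earlier results of these data known. Genes named from a list are those called in any comparison with or without the block, at most 4 per list, and otherwise those with the 2 largest differences between fractions. The genes most like Srebf1 or Fasn are the 5 with the highest r. Dbp, Igfbp1, Slc25a1, Txnip, G6pd2 and the markers given for levels near 0 were chosen after their values were seen. Exon lengths, overlaps and promoter windows come from GRCm38, not mm9, and no coordinates were converted. Some genes of these lists are not reported here.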

Additional observations from a re-analysis of the deposited data

How the results depend on the processing

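With all libraries and without the mouse term or a same-mouse correlation, 0 of the 10 genes were called in any of the 6 comparisons, and the sign of their KO against WT differences held under each alternative that kept all libraries. The number of genes called moved with the setting. In KO against WT high-fat libraries it was 1, and 2 with the replicate block and 0 with only the libraries compared. Between fractions in WT it was 0, and 1 with a pseudocount of 10, 181 with the replicate block, 370 with the same-mouse correlation, 173 with the block and deposited scaling and 485 with the block and hepatocyte marker scaling. Between fractions in KO it was 171, and 111 with no filter, 102 with deposited scaling, 69 with hepatocyte marker scaling, 382 with the block, 545 with the same-mouse correlation and 0 with only the libraries compared. With the block it was 291, 352 and 574 in KO under median-of-ratios, deposited and hepatocyte marker scaling. Over 6 mice it was 961, and 1796 with the block, 2036 with the same-mouse correlation, and 1670, 1521 and 1497 with the block and the same 3 scalings. Leaving out 1 library or mouse gave 0 to 12 in KO against WT in low-fat libraries, 0 to 12 in KO against WT in high-fat libraries, 0 to 1 between fractions in WT, 0 to 202 between fractions in KO, 346 to 2958 between fractions over 6 mice and 0 in the interaction throughout. The difference of Acacb between fractions in WT turned to 0.0011 with hepatocyte marker scaling, with or without the block. In the interaction the sign turned for Fasn with median-of-ratios (-0.0017), deposited (-0.014) and hepatocyte marker scaling (-0.017), for Acaca with the latter pair (-0.0096 and -0.012) and for Me1 with the same pair (-0.00675 and -0.0096), with or without the block. Over 6 mice with the block and without mouse 1 of each genotype, Acacb turned to 0.0085 and G6pdx to -0.14. The cause was not tested. Leaving out 1 library or mouse, without or with the block, gave these ranges of log2 differences where a sign turned. In KO against WT in low-fat libraries they were -0.54 to 0.20 for Srebf1, -0.59 to 0.0996 for Acly, -1.08 to 0.84 for Acacb, -1.33 to 0.20 for Fasn, -0.41 to 0.28 for Me1, -0.28 to 0.16 for G6pdx, -1.22 to 0.27 for Thrsp and -0.48 to 0.18 for Acss2. In KO against WT in high-fat libraries they were -0.54 to 0.26 for Srebf1, -1.28 to 0.68 for Acacb, -1.38 to 0.26 for Fasn, -0.41 to 0.22 for Me1, -0.42 to 0.14 for G6pdx, -1.44 to 0.15 for Thrsp and -0.55 to 0.14 for Acss2. Between fractions in WT they were -0.55 to 0.34 for Acacb, -1.03 to 0.00291 for Fasn, -0.20 to 0.29 for G6pdx, -0.89 to 0.45 for Thrsp and -0.34 to 0.0154 for Acss2. Between fractions in KO they were -1.19 to 0.39 for Acacb, -0.25 to 0.25 for G6pdx and -0.54 to 0.013 for Acss2. Between fractions over 6 mice they were -0.67 to 0.14 for Acacb, -0.0748 to 0.18 for G6pdx and -0.63 to 0.0419 for Thrsp. In the interaction they were -0.24 to 0.35 for Srebf1, -0.43 to 0.26 for Acly, -0.30 to 0.23 for Acaca, -1.03 to 0.51 for Acacb, -0.51 to 0.53 for Fasn, -0.33 to 0.25 for Me1, -0.25 to 0.38 for Pgd, -0.35 to 0.25 for G6pdx, -0.81 to 0.53 for Thrsp and -0.37 to 0.18 for Acss2. Pairing by mouse is in the labels, and the block changed the calls of Acly, Thrsp, Acaca, Srebf1 and Pgd over 6 mice and, with TMM, no other call of the 10. The Ptprk call was lost in high-fat libraries with only the libraries compared, without WT high-fat replicate 2 or 3 or KO high-fat replicate 1, and without WT or KO mouse 2 or 3, and in low-fat libraries without WT mouse 3. Without KO low-fat replicate 3, 69 genes were called between fractions in KO, against at most 2 in the other fits without the block that left out a KO library or mouse. For KO against WT, where mice share only a number, deviations of same-numbered libraries correlated with r between 0.252 and 0.397 in low-fat and between -0.174 and 0.491 in high-fat libraries. The SE of KO against WT differences was 0.27 to 0.78 with 3 mice per genotype, and which difference would be detectable was not tested. G6pdx, at 158 to 362 reads per 20 M, has the largest counting error of the 10.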

Other observations

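Of the marker lists not described so far, biliary and adipocyte markers were largely below the filter. Krt7, Krt19, Epcam, Cldn7 and Cftr lay between 0 and 7 reads per 20 M in the 12 libraries, and 3 of 8 biliary markers were tested. Genes called lower in the high-fat fraction over 6 mice by limma with the mouse term included Sox9 (log2 difference -0.62, adjusted p = 0.0028). Of 8 adipocyte markers 4 were tested, and Cidec, a lipid droplet protein that fatty hepatocytes also express, was called higher with the mouse term in limma (0.65, adjusted p = 0.014). Of 10 immediate early genes that cell isolation can induce, 9 were tested and limma called 0 with or without the mouse term, with a median difference of 0.03. The mice differed in direction. The summed level of the 10 rose 1.53-fold in WT mouse 1 and 1.72-fold in KO mouse 1 between fractions. In the other mice it was between 0.73-fold and 1.02-fold. Its part in the differences of the lipogenic genes was not tested. Txnip, a ChREBP target in the lipogenic list, differed by 0.64 in the direction opposite to Fasn (limma adjusted p with the mouse term 0.074).

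In KO against WT, limma called 0 genes of any list in either fraction, with or without the block. Kupffer cell and macrophage markers had a median difference of -0.76 in low-fat and -0.08 in high-fat libraries, stellate cell markers -0.51 and 0.04, and sinusoidal endothelial markers -0.69 and -0.42. The median of all genes was -0.01 and 0.02. Hepatocyte markers had medians of 0.04 and 0.08, pericentral markers -0.41 and -0.26, and periportal markers 0.03 and 0.11.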
